A study of Mus musculus with 20 samples.

Results

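Adipocyte translatomes were compared between male mice fed a high-fat diet (HFD) for 25 weeks (HH, n = 2) and chow-fed mice of the same age, 31 weeks (CC_l, n = 2). The 4 libraries are those that the sample labels give for these groups, out of 20 libraries in 8 groups. The diet and its length come from the treatment entry of the labels, while the field for the treatment protocol reads control for all 20 samples. All mice carried AdipoERCre and NuTRAP on a background that the labels write as C576BL6. In these animals tamoxifen switches on a Cre recombinase driven by the adiponectin promoter, which tags ribosomes of adipocytes, and translating ribosome affinity purification followed by sequencing (TRAP–seq) then reads the mRNA that the tagged ribosomes carry. The tissue was epididymal adipose tissue (epiAT), the visceral fat pad that lies against the testis and epididymis. All mice, controls included, received tamoxifen at a young age, and the chow given alongside the HFD was a low-fat diet. The other groups used here were chow controls aged 18 weeks (C, n = 3), their counterparts after 12 weeks of HFD (H, n = 3), and, at 39 weeks of age, chow controls (CCC, n = 2) and mice given 8 weeks of chow after 25 weeks of HFD (HHC, n = 2). According to the methods of the study, CCC and HHC received another chow product in those last weeks, so CCC differs from CC_l in chow as well as in age. Each library is labelled as a separate biological replicate.

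White adipocytes store triglyceride in a single large droplet, release fatty acids and glycerol between meals, and secrete hormones such as leptin and adiponectin. With long feeding on fat, epiAT is known for enlarged and dying adipocytes, macrophages that gather around them and take up their lipid, and deposition of fibrillar and type VI collagen. These statements are background and not results.

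The 4 libraries held between 16062931 and 30146952 counts, so that a count of 0 allows up to 0.0915 to 0.196 CPM, that is counts scaled to a common library size, for counting error only. Levels below are normalised CPM, given for replicate 1 and then replicate 2 of each group. CPM does not take transcript length into account, so levels are compared between mice and not between genes. Changes are log2 fold changes of HH over CC_l with their SE, from edgeR's quasi-likelihood test fitted on all 20 libraries, and adjusted p-values are Benjamini-Hochberg values over the 21464 genes tested. A gene was called differentially expressed (DEG) where its nominal p was under 0.01 and its log2 fold change was 1 or more in size, and "rose" and "fell" are used of DEGs alone. The label "adipocytes" was checked against its markers. Adipoq (adiponectin) stood at 4160 and 4350 CPM in CC_l and 3130 and 2780 CPM in HH, and Plin1, which coats the lipid droplet, stood at 318 and 368 CPM in CC_l and 145 and 128 CPM in HH. RNA of other cell types was present as well, and because the pulldown is a bulk sample, fewer cells of a type and less RNA per cell cannot be told apart.

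One control library carried germ-cell RNA, and the libraries also differed in other measures. Nuclear-retained RNA, a sign of nuclear carry-over, made up 0.386% and 0.999% of the counts in CC_l and 0.441% in each HH mouse. A germ-cell set, defined below, made up 3.38% of the counts of CC_l replicate 1, against 0.0325% in CC_l replicate 2 and 0.0506% and 0.111% in the HH mice. A shorter list of known germ-cell transcripts summed to 9530 and 153 CPM in CC_l and 147 and 418 CPM in HH. The protamine gene Prm2, which packs sperm DNA, was at 1070 and 4.58 CPM in CC_l and 6.84 and 19.6 CPM in HH. To set such transcripts aside, 1016 genes were taken as a germ-cell set, from a list of germ-cell genes and from every gene that followed that list with a correlation of at least 0.8 over the 16 libraries outside this comparison. Among those 16, the list had its highest mean log2 CPM, 3.6, in HC replicate 3, a mouse given 8 weeks of chow after 12 weeks of HFD. C replicate 1 came next at 0.545, so the correlation leans largely on HC replicate 3. The plot of the chow mice against each other shows the germ-cell set far above the diagonal. In this set 1 gene rose and 23 fell, with a median log2 fold change of -5.38, and without CC_l replicate 1 the median of the 94 germ-cell transcripts tested changed from -5.17 to 2.13. A further 2392 genes, 950 of them in the germ-cell set, were at least 4 times higher in CC_l replicate 1 than in replicate 2 and higher there than in every other library. They are called the set high in CC_l replicate 1. Its rule asks nothing of germ-cell origin and uses the HH values, so that no gene with an HH mouse above CC_l replicate 1 can belong to it, and 0 of its genes rose.

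**Figure D1:**
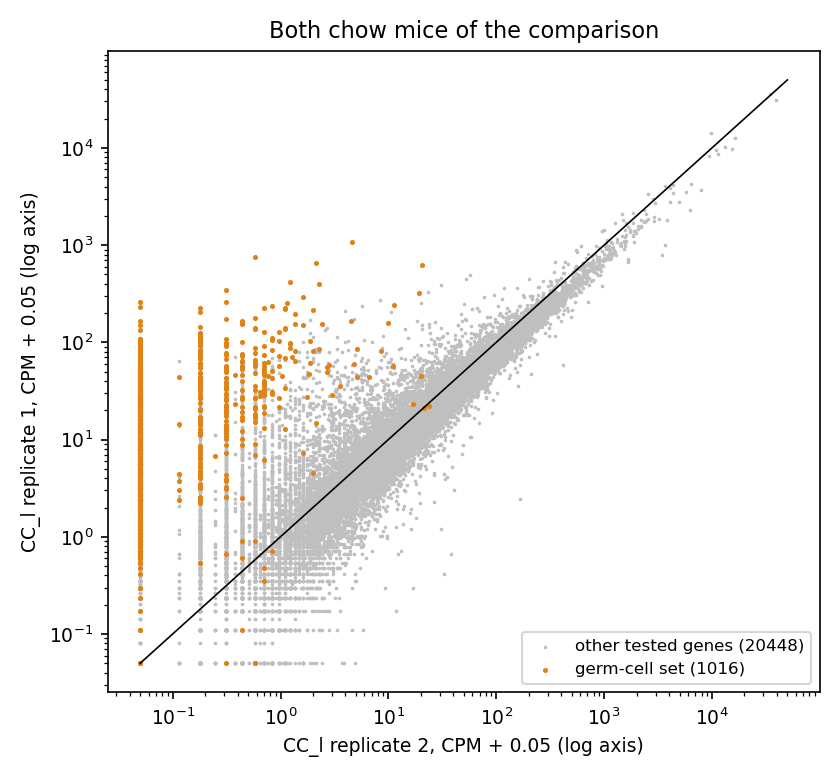
Normalised CPM plus 0.05 of each tested gene in CC_l replicate 2 (horizontal log axis) and CC_l replicate 1 (vertical log axis), with the germ-cell set of 1016 genes in orange and the other 20448 genes in grey. The line marks equal levels. Of the orange genes 1004 lie above it, up to Prm2 at 1070 CPM in replicate 1. Of the grey genes 13612 lie within 2 times of it, and 2353 lie at least 4 times above it.

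Over all genes tested, 1055 (4.92%) rose and 403 (1.88%) fell, so that 6.79% were DEGs. At an adjusted p under 0.05, 375 (1.75%) were higher and 70 (0.326%) lower in HH. With the germ-cell set left out, 1054 rose and 380 fell, and 374 and 69 passed the adjusted threshold. The median log2 fold change was -0.23 over all genes and -0.16 without the germ-cell set, so more genes lay slightly below 0 than above it, while the DEGs lay mostly above. Both HH mice exceeded both CC_l mice at 26.3% of genes and lay below both at 28.9%, which is the share against which non-overlapping genes of any list have to be read. The counts leaned on single mice. Where 4 counts are given for a list with one mouse left out, their order is CC_l replicate 1, CC_l replicate 2, HH replicate 1 and HH replicate 2. Leaving out CC_l replicate 2 gave 697 rises and 609 falls, with 81 genes past the adjusted threshold, and leaving out HH replicate 1 or 2 gave 574 and 80, or 826 and 150, with 4 and 60. Without CC_l replicate 1, 419 genes rose, 150 fell and 0 passed the adjusted threshold (569 DEGs at nominal p), and a fit restricted to the 8 long-arm libraries also left 0 adjusted calls, with 935 DEGs by the nominal rule and 1141 adjusted calls by edgeR's likelihood ratio test on all libraries.

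The largest rises by a fixed rule, among protein-coding genes that passed the adjusted threshold outside the germ-cell set, were mixed in kind. Gpr50, an orphan receptor gene on chromosome X (chrX:71663667-71669257, mm10), was at 0.061 and 0 CPM in CC_l and 12.3 and 12.3 CPM in HH. Its control level was under the limit that a count of 0 allows in both chow mice, so no fold is given. Mmp3, a secreted protease that cuts matrix proteins, was at 0.244 and 0.917 CPM in CC_l and 20.6 and 176 CPM in HH. Tph2, which makes serotonin in neurons, was at 1.71 and 1.96 CPM in CC_l and 45.1 and 388 CPM in HH. All 3 were higher in both HH mice than in either control, and Mmp3 and Tph2 also differed several-fold between the HH mice. Fbln7 (fibulin 7, a matrix protein) rose by 6.54 ± 1.04 on the log2 scale, Ubd (an interferon-inducible ubiquitin-like protein) by 6.04 ± 1.27, and Lum (lumican, a collagen-binding proteoglycan) by 5.42 ± 0.87. The others were Lipf, an acid lipase (6.01 ± 1.46), Slc5a7, a choline transporter (5.86 ± 1.16), Tnip3, an inhibitor of NF-kappa-B signalling (5.64 ± 1.17), Clec4b1, a lectin of antigen-presenting cells (5.33 ± 0.97), Cd72, a lectin of B cells (5.22 ± 1.06), and Tlr8, an endosomal RNA sensor (5.03 ± 0.99). Cd72 shares 41.6% of its exon length with Tesk1 on the opposite strand, and the strand setting of the counting is not given in the sources used here. Of the genes named further on, Acsl5, Adrb3, Cd9, Cdkn1a, Csf1r, Ctsb, Ctsd, Ddit3, Ftl1, Gpd2, Mest, Prkag2 and Ramp2 likewise share more than 5% of their exon length with another annotated gene, so their counts are uncertain.

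Extracellular matrix was the gene group with the highest share of DEGs among those with over 20 members. Of 39 collagen and matrix genes tested, 30 rose and 0 fell, 26 of them past the adjusted threshold, with a median log2 fold change of 2.63. All 39 had a fold change above 0, and in 36 the HH mice did not overlap the CC_l mice. Fibrillar collagen I, the main load-bearing collagen, was at 33.9 and 73.3 CPM in CC_l and 459 and 726 CPM in HH for its gene Col1a1 (log2 fold change 3.47 ± 0.67, adjusted p = 0.0244). Col3a1, which encodes the finer fibrils of soft tissue, was at 125 and 285 CPM in CC_l and 1770 and 2600 CPM in HH (log2 fold change 3.41 ± 0.85, adjusted p = 0.0462). In both genes CC_l replicate 2 was higher than replicate 1, and the HH mice were several-fold above either. Collagen VI, which surrounds adipocytes, followed: Col6a1 was at 40.8 and 77.3 CPM in CC_l and 379 and 432 CPM in HH, Col6a2 at 45 and 73.8 CPM in CC_l and 457 and 396 CPM in HH and Col6a3 at 26.1 and 43 CPM in CC_l and 310 and 390 CPM in HH. These 3 chains rose by 2.78 ± 0.66, 2.85 ± 0.51 and 3.34 ± 0.64 on the log2 scale. Col14a1, a fibril-associated collagen, was among the most even within groups, at 7.2 and 8.25 CPM in CC_l and 69.1 and 68.9 CPM in HH (log2 fold change 3.16 ± 0.48, adjusted p = 0.0145). Collagens aside, Postn (periostin, a matricellular protein of fibrotic tissue) was at 14 and 20.8 CPM in CC_l and 499 and 578 CPM in HH (log2 fold change 4.95 ± 0.78, adjusted p = 0.0145). Fn1 (fibronectin) was at 45 and 42.7 CPM in CC_l and 498 and 559 CPM in HH (log2 fold change 3.59 ± 0.77, adjusted p = 0.0279). Sparc, a collagen-binding glycoprotein made by adipocytes and fibroblasts, was at 1050 and 1440 CPM in CC_l and 7290 and 5470 CPM in HH (log2 fold change 2.36 ± 0.58, adjusted p = 0.0435). None of these groups overlapped. The number of list members that rose was 17 without CC_l replicate 1, 28 without CC_l replicate 2, 28 without HH replicate 1 and 28 without HH replicate 2.

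Enzymes that remodel matrix rose alongside. Of 36 matrix proteases and inhibitors, 18 rose and 0 fell, with a median of 2.02. Mmp2 (gelatinase A) was at 8.3 and 13.9 CPM in CC_l and 106 and 200 CPM in HH (log2 fold change 3.79 ± 0.78, adjusted p = 0.0253). Adam12, a membrane-bound metalloprotease, was at 4.7 and 4.58 CPM in CC_l and 43.2 and 67.9 CPM in HH (log2 fold change 3.58 ± 0.76, adjusted p = 0.027). Timp1, which inhibits most matrix metalloproteases, was at 1.52 and 2.62 CPM in CC_l and 27.7 and 55.9 CPM in HH (log2 fold change 4.34 ± 1.06, adjusted p = 0.0418). Timp4, the inhibitor most typical of adipocytes, was at 903 and 1050 CPM in CC_l and 414 and 129 CPM in HH and was not a DEG (log2 fold change -1.85 ± 1.03, adjusted p = 0.361). Timp1 and Timp4 therefore had opposite signs within one family. In the transforming growth factor-beta (TGF-beta), activin and BMP list 10 of 36 genes rose, among them Fstl1, a secreted follistatin-like protein (log2 fold change 3.02 ± 0.57, adjusted p = 0.0225), and the receptor gene Tgfbr2 (log2 fold change 1.83 ± 0.44, adjusted p = 0.0404). With one mouse left out 4, 8, 5 and 10 of this list rose. The hypoxia list had 3 of 18 up, and these included Lox, the enzyme that cross-links collagen (log2 fold change 2.27 ± 0.48, adjusted p = 0.0272), and Adm (adrenomedullin, log2 fold change 2.85 ± 0.54, adjusted p = 0.0225). The protease count was 7 without CC_l replicate 1, 14 without CC_l replicate 2, 10 without HH replicate 1 and 14 without HH replicate 2.

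The gene with the smallest p of the whole comparison was Serpinf1 (pigment epithelium-derived factor, a secreted protein of the serpin family), at 26.9 and 38.8 CPM in CC_l and 451 and 567 CPM in HH (log2 fold change 3.96 ± 0.45, adjusted p = 0.00204). A second secreted factor, Sfrp4, which binds Wnt ligands, was at 1.46 and 1.31 CPM in CC_l and 30.8 and 28.2 CPM in HH (log2 fold change 4.40 ± 0.68, adjusted p = 0.0145). Both groups of each gene were tight and far apart. Markers of adipocyte progenitors and fibroblasts, which make most matrix in fat, rose at 13 of 23 genes with a median of 2.48, and all 23 were above 0. Dpt (dermatopontin) was at 97.7 and 146 CPM in CC_l and 543 and 817 CPM in HH (log2 fold change 2.48 ± 0.60, adjusted p = 0.0411) and Mfap5 at 15.5 and 19.1 CPM in CC_l and 177 and 218 CPM in HH (log2 fold change 3.51 ± 0.66, adjusted p = 0.0219). The progenitor receptor genes Pdgfra and Pdgfrb rose by 2.26 ± 0.63 and 2.44 ± 0.67, while Pi16, a marker of early progenitors, was at 10.6 and 4.19 CPM in CC_l and 17 and 14.3 CPM in HH and was not called. The summed level of the list was 3570 and 6270 CPM in CC_l and 13100 and 14400 CPM in HH, and its part in the matrix values was not tested. The number that rose was 8 without CC_l replicate 1, 13 without CC_l replicate 2, 14 without HH replicate 1 and 12 without HH replicate 2.

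**Figure D2:**
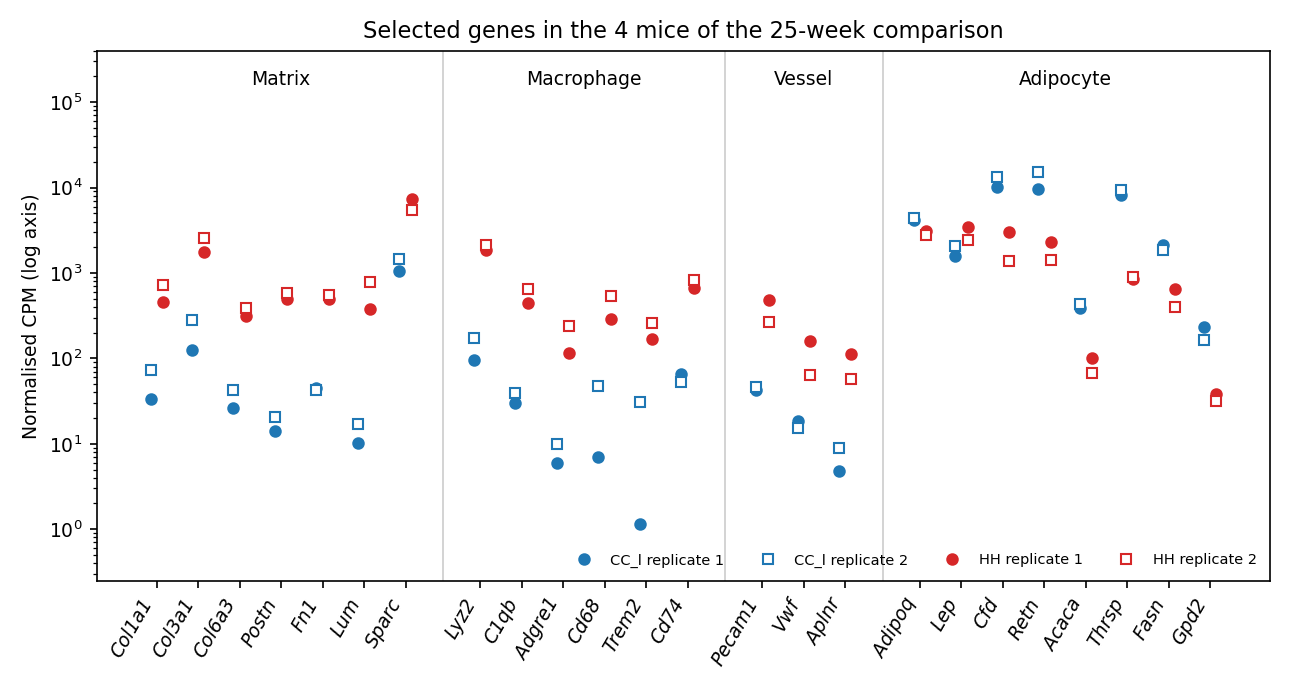
Normalised CPM (log axis) of selected matrix, macrophage, vessel and adipocyte genes in each of the 4 mice, with CC_l in blue, HH in red, replicate 1 as filled circles and replicate 2 as open squares. Matrix and macrophage genes sit higher in both HH mice, Trem2 ranges from 1.16 to 30.9 CPM between the chow mice, and Cfd, Retn, Thrsp and Acaca sit lower in both HH mice.

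Macrophage transcripts had the largest median of the 62 lists. Of 20 macrophage markers, 17 rose and 0 fell, 12 past the adjusted threshold, with a median log2 fold change of 3.40. Lyz2 (lysozyme) was at 94.7 and 174 CPM in CC_l and 1840 and 2130 CPM in HH (log2 fold change 3.88 ± 0.76, adjusted p = 0.0247). The complement gene C1qb was at 30.1 and 39.7 CPM in CC_l and 443 and 642 CPM in HH (log2 fold change 3.96 ± 0.72, adjusted p = 0.0187). Adgre1, which encodes the F4/80 antigen, was at 6.04 and 9.82 CPM in CC_l and 116 and 240 CPM in HH (log2 fold change 4.49 ± 0.87, adjusted p = 0.0244). Tyrobp, the adaptor of several activating receptors, was at 8.84 and 17.8 CPM in CC_l and 178 and 234 CPM in HH (log2 fold change 3.95 ± 0.71, adjusted p = 0.0187). In these 4 genes both HH mice were far above both CC_l mice. The pan-leukocyte gene Ptprc (CD45) was at 13.5 and 38.3 CPM in CC_l and 172 and 174 CPM in HH (log2 fold change 2.74 ± 0.88, adjusted p = 0.118). The list's summed level was 573 and 708 CPM in CC_l and 5550 and 7120 CPM in HH, and no member was at 0 in a chow mouse. Cre is driven by an adipocyte promoter in this model, so the level of macrophage genes is given as measured, and the cell of origin was not tested. The number that rose was 10 without CC_l replicate 1, 13 without CC_l replicate 2, 15 without HH replicate 1 and 14 without HH replicate 2.

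Lipid-associated macrophages are the subset that surrounds dying adipocytes and digests their lipid. Of 23 of their markers 7 rose, with a median of 2.21, and the list shares genes such as Fabp4 and Lpl with adipocytes. With one mouse left out 2, 9, 4 and 6 of them rose, and the median was 1.41 without CC_l replicate 1. Trem2, the lipid receptor that defines the subset, was at 1.16 and 30.9 CPM in CC_l and 167 and 260 CPM in HH (log2 fold change 3.75 ± 1.28, adjusted p = 0.142). Gpnmb, a lysosomal glycoprotein, was at 2.38 and 166 CPM in CC_l and 505 and 371 CPM in HH and was not called (log2 fold change 2.38 ± 1.28, adjusted p = 0.342). Mmp12, a macrophage metalloprotease, was at 0.61 and 38 CPM in CC_l and 477 and 295 CPM in HH. Itgax (CD11c) was at 1.52 and 18 CPM in CC_l and 62.7 and 65.8 CPM in HH, and neither was called. The chow mice differed widely at these genes, with CC_l replicate 2 above replicate 1 in each, while neither HH mouse was below either chow mouse. Cd68, a lysosomal protein of macrophages, showed the same order, at 7.01 and 48.1 CPM in CC_l and 286 and 536 CPM in HH (log2 fold change 3.90 ± 0.96, adjusted p = 0.0438). Cd9 and Capg rose as well, by 3.07 ± 0.69 and 3.34 ± 0.80. Perivascular macrophage markers gave 7 rises among 16 (4, 7, 7 and 5 with one mouse left out), with Pf4 at 23.4 and 25.3 CPM in CC_l and 94.6 and 172 CPM in HH (log2 fold change 2.45 ± 0.42, adjusted p = 0.0181). The mannose receptor gene Mrc1 was at 22.5 and 29 CPM in CC_l and 189 and 317 CPM in HH (log2 fold change 3.29 ± 0.70, adjusted p = 0.027). Lyve1 and Cd163 were at 16.5 and 23.2 CPM in CC_l and 40.5 and 38 CPM in HH and at 27.7 and 11.1 CPM in CC_l and 32.3 and 32.2 CPM in HH and were not called.

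Antigen presentation by class II molecules of the major histocompatibility complex (MHC) rose at 9 of 15 genes, 8 of them past the adjusted threshold, with a median of 3.22. H2-Ab1 was at 156 and 112 CPM in CC_l and 1810 and 2090 CPM in HH (log2 fold change 3.86 ± 0.80, adjusted p = 0.0253). The invariant chain gene Cd74 was at 65.6 and 53 CPM in CC_l and 660 and 817 CPM in HH (log2 fold change 3.64 ± 0.73, adjusted p = 0.0253). All 15 genes had a positive fold change. Between 7 and 9 of them rose when any one of the 4 mice was left out. MHC class I presentation rose at 9 of 22 genes with a smaller median of 1.43: H2-K1 and H2-D1 rose by 2.19 ± 0.65 and 1.91 ± 0.52, and these 2 genes are so alike that their counts are uncertain. The class I count with one mouse left out was 2, 4, 5 and 6. B2m, the shared light chain, was at 1810 and 2180 CPM in CC_l and 3500 and 4770 CPM in HH and was not called. Phagocyte receptors followed the macrophage markers, with 11 of 21 Fc gamma and Cd300 receptors and 11 of 24 Toll-like receptors and their partners up. The counts with one mouse left out were 5, 10, 10 and 7 for the first list and 3, 10, 10 and 5 for the second. Fcgr3 was at 11.1 and 19 CPM in CC_l and 216 and 370 CPM in HH (log2 fold change 4.29 ± 0.79, adjusted p = 0.0193). Ly86, a Toll-like receptor partner, was at 2.99 and 2.36 CPM in CC_l and 46.5 and 92.4 CPM in HH (log2 fold change 4.69 ± 0.84, adjusted p = 0.0187). Of the 8 phagocyte NADPH oxidase genes 5 rose, and all 8 separated the groups without overlap. The number that rose was 1, 4, 4 and 2 with one mouse left out. Cyba was at 30.4 and 101 CPM in CC_l and 573 and 632 CPM in HH (log2 fold change 3.19 ± 0.88, adjusted p = 0.0691). Nox4, an oxidase of mesenchymal cells, was at 0.976 and 1.11 CPM in CC_l and 11.9 and 23 CPM in HH (log2 fold change 4.05 ± 0.98, adjusted p = 0.0418).

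Signals that attract leukocytes rose too. Of 23 chemokines tested, 10 rose and 0 fell, with a median of 2.07. Ccl11 (eotaxin) was at 8.84 and 10.3 CPM in CC_l and 217 and 122 CPM in HH (log2 fold change 4.14 ± 0.76, adjusted p = 0.0187), Ccl9 at 14.6 and 13.9 CPM in CC_l and 268 and 295 CPM in HH (log2 fold change 4.31 ± 0.91, adjusted p = 0.0264) and Ccl6 at 37.8 and 27.8 CPM in CC_l and 246 and 464 CPM in HH (log2 fold change 3.44 ± 0.71, adjusted p = 0.0253). Among 13 chemokine receptors 5 rose, including Ccr2, the receptor of incoming monocytes (log2 fold change 2.78 ± 0.83, adjusted p = 0.0944), C5ar1 (log2 fold change 3.96 ± 0.81, adjusted p = 0.0253) and the scavenging receptor Ackr3 (log2 fold change 2.82 ± 0.57, adjusted p = 0.0253). The classical inflammatory cytokines were hardly detected: Tnf was at 0.305 and 0.393 CPM in CC_l and 1.37 and 0.454 CPM in HH and Il6 at 0.061 and 0 CPM in CC_l and 0.456 and 0.182 CPM in HH. In the list of 42 cytokines and receptors 7 rose, mostly receptor chains such as Il13ra1 (log2 fold change 2.95 ± 0.73, adjusted p = 0.0442). Complement and acute-phase genes gave 14 rises and 1 fall among 32, including C1qb and Serping1, the inhibitor of complement C1 (log2 fold change 3.28 ± 0.66, adjusted p = 0.0253). Without CC_l replicate 1, 5 chemokines and 7 complement and acute-phase genes rose, against 8 and 10 to 12 without any other mouse. For chemokine receptors the counts with one mouse left out were 3, 5, 4 and 6, and for cytokines and receptors they were 1, 7, 4 and 6. The fall was that of Cfd, described with the adipocyte genes.

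Lymphocyte markers gave few calls. In the list of T, B and NK cell markers 2 of 27 rose, Cd2 (log2 fold change 2.83 ± 0.88, adjusted p = 0.109) and Trac (log2 fold change 3.65 ± 1.15, adjusted p = 0.112). The count was 0, 1, 0 and 1 with one mouse left out. The defining T-cell gene Cd3e was at 0.427 and 3.27 CPM in CC_l and 2.37 and 0.999 CPM in HH. The immunoglobulin gene Ighm differed between the mice of each group and overlapped between groups, at 712 and 1680 CPM in CC_l and 786 and 1760 CPM in HH. The median of the T, B and NK cell list was 1.53 and 19 of its genes did not overlap between groups. Of the other cell types that an epididymal pad can hold, mesothelial markers (0 of 14 called, median 0.42) and epididymal epithelium markers (0 of 23 called, median -0.29) gave no call, and the latter median was 3.12 without CC_l replicate 1. One epididymal gene, Crisp1, was at 0.183 and 0.655 CPM in CC_l and 144 and 0.0908 CPM in HH, that is in one HH mouse. Haemoglobin genes were present in all mice, with Hbb-bs at 675 and 353 CPM in CC_l and 2120 and 593 CPM in HH.

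The interferon response is a set of genes that cells switch on when interferons bind their receptors, through a promoter element that the interferon regulatory factors and STAT proteins recognise. Of 45 such genes 10 rose and 0 fell, with a median log2 fold change of 1.63. Ifitm3, which blocks viral entry, was at 55 and 69.1 CPM in CC_l and 382 and 296 CPM in HH (log2 fold change 2.45 ± 0.37, adjusted p = 0.0145). Gbp2, a guanylate-binding protein, was at 27.7 and 30.3 CPM in CC_l and 123 and 102 CPM in HH (log2 fold change 1.95 ± 0.59, adjusted p = 0.0962) and Ifit1 at 1.65 and 6.02 CPM in CC_l and 16.5 and 18.3 CPM in HH (log2 fold change 2.19 ± 0.74, adjusted p = 0.137). The HH mice were above both chow mice in all 3. The most abundant gene of the list, Ifi27l2a, was at 799 and 3460 CPM in CC_l and 1200 and 5440 CPM in HH and was not called, with replicate 2 above replicate 1 in both groups. The number that rose was 2 without CC_l replicate 1, 8 without CC_l replicate 2, 4 without HH replicate 1 and 6 without HH replicate 2. To show what the promoters of these genes hold, a GAAA followed, after any 2 bases, by another GAAA, a core of the interferon-stimulated response element, were searched on both strands from 250 bases before to 50 after each start in the RefSeq promoter table (GRCm38.p6). Of 36 members with a promoter in the table, 21 (58.3%) held the motif, as did 3.99% of all 27025 genes in it and 3.81% of those tested. A gene with several starts was counted once, as holding the motif if any of its promoters did. Among the 21 members with the motif 4 rose (median 1.57), and among the 15 without it 4 rose (median 1.77). Windows around the motif are printed for Gbp2 and Ifit1, read on the strand of the gene, with the motif in capitals. In both the match in capitals is on the opposite strand, so it reads as TTTC, any 2 bases and TTTC. The Ifit1 promoter holds 2 matches, and the second lies in the printed window in small letters. The match in capitals begins 59 bases before the start of Gbp2 (chr3:142620579-142620638) and 104 bases before that of Ifit1 (chr19:34640760-34640819), both on the plus strand.
Gbp2: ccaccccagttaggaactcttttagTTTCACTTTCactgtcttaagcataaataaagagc
Ifit1: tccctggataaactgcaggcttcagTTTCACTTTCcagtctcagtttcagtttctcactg

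Lysosomes degrade lipid, protein and glycans, and their genes share a palindromic promoter element bound by the transcription factor TFEB. Of 70 lysosomal genes 33 rose and 0 fell, 16 past the adjusted threshold, with a median of 1.56. Cathepsins, the lysosomal proteases, were prominent. Ctsb was at 515 and 835 CPM in CC_l and 3620 and 3480 CPM in HH (log2 fold change 2.40 ± 0.59, adjusted p = 0.0442) and Ctsz at 101 and 129 CPM in CC_l and 720 and 553 CPM in HH (log2 fold change 2.47 ± 0.47, adjusted p = 0.0244). Ctss, a cathepsin of antigen-presenting cells, was at 18.9 and 90.9 CPM in CC_l and 1100 and 1070 CPM in HH (log2 fold change 4.30 ± 1.07, adjusted p = 0.046). Lgmn (legumain) was at 23.4 and 35.8 CPM in CC_l and 405 and 607 CPM in HH (log2 fold change 4.10 ± 0.84, adjusted p = 0.0253). Asah1 (acid ceramidase) was at 25.2 and 27.6 CPM in CC_l and 178 and 207 CPM in HH (log2 fold change 2.87 ± 0.54, adjusted p = 0.0225). Lipa, the acid lipase that frees fatty acids and cholesterol from lipoproteins, was at 18 and 56.4 CPM in CC_l and 317 and 409 CPM in HH (log2 fold change 3.29 ± 0.74, adjusted p = 0.0309). Both HH mice were above both chow mice in 58 of the 70 genes and below both in 6. Macrophage markers, whose summed level is given above, moved with this list, and their part in it was not tested. The number that rose was 11 without CC_l replicate 1, 25 without CC_l replicate 2, 23 without HH replicate 1 and 22 without HH replicate 2. The RefSeq promoters held 57 of the members. The element TCACGTGA, which reads the same on both strands, was in 8 of them (14%). It was in 1.12% of all genes with a promoter there and in 1.79% of those tested. Of those 8 members 3 rose (median 0.92), and of the 49 without it 24 rose (median 1.56). The promoters of Ctsd (1.78 ± 0.50) and Gla (2.29 ± 0.78) are printed as examples of members that rose, on the strand of the gene with the element in capitals. It begins 99 bases before the start of Ctsd (chr7:142387894-142387951) and 228 bases before that of Gla (chrX:134601201-134601255), both on the minus strand. The Gla promoter holds 2 such elements, of which only the first is printed.
Ctsd: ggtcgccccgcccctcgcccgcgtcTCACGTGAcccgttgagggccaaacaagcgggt
Gla: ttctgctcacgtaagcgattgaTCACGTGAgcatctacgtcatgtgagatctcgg

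Cholesterol synthesis and efflux genes rose in part. Of 34 genes 9 rose and 1 fell, with a median of 1.26. The rises numbered 3, 6, 3 and 7 with one mouse left out, and there were 0 falls in each case. Abcg1, which exports cholesterol to lipoproteins, was at 11.3 and 19.1 CPM in CC_l and 227 and 184 CPM in HH (log2 fold change 3.76 ± 0.68, adjusted p = 0.0187). Enzymes of synthesis also rose, with Ebp at 32.3 and 39.2 CPM in CC_l and 131 and 109 CPM in HH (log2 fold change 1.75 ± 0.41, adjusted p = 0.0357) and Cyp51 at 27.1 and 26.1 CPM in CC_l and 96.7 and 55.4 CPM in HH (log2 fold change 1.51 ± 0.41, adjusted p = 0.0617). The carrier Apoe was at 1870 and 3250 CPM in CC_l and 6010 and 5560 CPM in HH and was not called. Iron handling had 2 rises among 24 genes, the ferrireductase gene Steap3 (log2 fold change 2.33 ± 0.47, adjusted p = 0.0253) and the phagosomal iron exporter gene Slc11a1 (log2 fold change 2.38 ± 0.65, adjusted p = 0.0639). The ferritin genes Ftl1 and Fth1 were at 1410 and 952 CPM in CC_l and 3730 and 3460 CPM in HH and at 1100 and 1590 CPM in CC_l and 2630 and 2450 CPM in HH without a call.

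Vessel transcripts rose at 15 of 21 endothelial markers, 4 past the adjusted threshold, with a median of 2.70. Pecam1 (CD31) was at 43.2 and 46.2 CPM in CC_l and 477 and 264 CPM in HH (log2 fold change 3.05 ± 0.79, adjusted p = 0.0539). Vwf (von Willebrand factor) was at 18.6 and 15.5 CPM in CC_l and 159 and 63.4 CPM in HH (log2 fold change 2.71 ± 0.64, adjusted p = 0.0367). Aplnr, the apelin receptor of growing vessels, was at 4.76 and 9.04 CPM in CC_l and 114 and 57.1 CPM in HH (log2 fold change 3.64 ± 0.75, adjusted p = 0.0253). HH replicate 1 was above HH replicate 2 in all 3, and both were above both chow mice. Gpihbp1, which carries lipoprotein lipase to the vessel lumen, showed the widest gap between HH mice, at 62.8 and 42.2 CPM in CC_l and 1250 and 306 CPM in HH (log2 fold change 3.89 ± 0.99, adjusted p = 0.0518). The summed level of the list was 465 and 506 CPM in CC_l and 5060 and 2050 CPM in HH. Of 14 smooth muscle, pericyte and Schwann cell markers 4 rose, 3 lay below 0, and the median was 1.88. The pericyte channel genes Abcc9 and Kcnj8 rose by 3.05 ± 0.69 and 3.57 ± 0.82, whereas the smooth muscle gene Acta2 was at 67.8 and 81 CPM in CC_l and 266 and 158 CPM in HH and was not called. Of these markers 2, 2, 2 and 4 rose with one mouse left out. The count of endothelial genes that rose was 5 without CC_l replicate 1, 9 without CC_l replicate 2, 4 without HH replicate 1 and 16 without HH replicate 2.

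**Figure D3:**
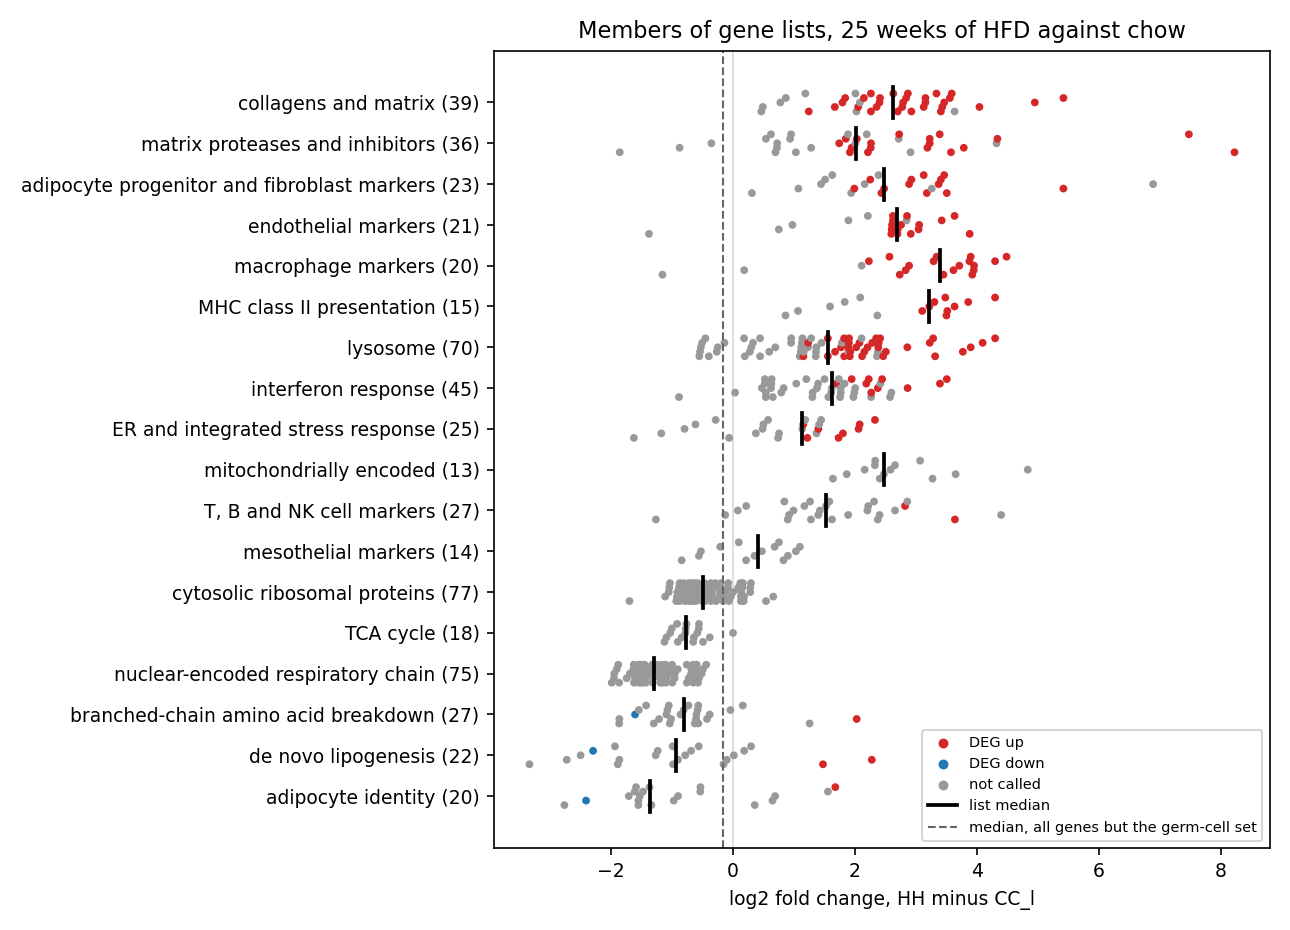
Log2 fold change, HH minus CC_l, of each tested member of 18 gene lists (number tested in brackets), with DEGs up in red, DEGs down in blue and genes not called in grey. Black bars mark list medians and the dashed line the median of -0.16 over all genes but the germ-cell set. Matrix, macrophage, vessel and lysosome lists lie to the right, the 13 mitochondrially encoded genes have a median of 2.48 with no call, and the 75 nuclear-encoded respiratory chain genes all lie to the left of 0.

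Genes that define the adipocyte itself mostly had lower values, with few calls. Of 20 adipocyte identity genes 1 rose and 1 fell, 15 lay below 0 without overlap between groups, and the median log2 fold change was -1.35. Cfd (adipsin, a serine protease that adipocytes secrete) fell, at 10100 and 13200 CPM in CC_l and 3010 and 1390 CPM in HH (log2 fold change -2.40 ± 0.80, adjusted p = 0.132), and was no longer called whichever of the 4 mice was left out. Retn (resistin) was at 9690 and 15400 CPM in CC_l and 2290 and 1430 CPM in HH and was not called (log2 fold change -2.76 ± 1.22, adjusted p = 0.257). The adiponectin gene named above had a log2 fold change of -0.53 ± 1.04, and Lep (leptin, which signals fat mass to the brain) was at 1590 and 2050 CPM in CC_l and 3490 and 2410 CPM in HH with a change of 0.70 ± 0.79, adjusted p = 0.681. The most abundant members, Fabp4 and Car3, were at 36100 and 34500 CPM in CC_l and 14900 and 23000 CPM in HH and at 30900 and 38800 CPM in CC_l and 8720 and 14600 CPM in HH, both below the chow mice and not called. Aqp7, the glycerol channel, was the member that rose, at 67.6 and 54.1 CPM in CC_l and 280 and 111 CPM in HH (log2 fold change 1.68 ± 0.58, adjusted p = 0.144), and was called only with HH replicate 2 left out among these fits. The summed level of the list was 113000 and 135000 CPM in CC_l and 57600 and 64500 CPM in HH. It was 121000 and 63400 CPM in CCC and 58000, 66900 and 188000 CPM in C, so some chow mice of other ages stood at the HH level. CPM are shares of a library, and the summed macrophage and vessel transcripts given above moved the opposite way, and how far this sets the lower values was not tested.

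De novo lipogenesis, the making of fatty acids from glucose, was lower at its first committed step. Acaca (acetyl-CoA carboxylase 1) was at 392 and 437 CPM in CC_l and 102 and 67.9 CPM in HH and fell (log2 fold change -2.29 ± 0.69, adjusted p = 0.0985), a call that was kept without CC_l replicate 1 but lost without any other of the mice. Of the 22 genes 2 rose and 1 fell, with a median of -0.94. Fasn (fatty acid synthase) was at 2120 and 1860 CPM in CC_l and 651 and 395 CPM in HH (log2 fold change -1.93 ± 1.11, adjusted p = 0.372) and Acly at 530 and 340 CPM in CC_l and 204 and 159 CPM in HH (log2 fold change -1.26 ± 1.00, adjusted p = 0.529). Thrsp, a lipogenic regulator, was at 8260 and 9390 CPM in CC_l and 858 and 898 CPM in HH (log2 fold change -3.33 ± 1.23, adjusted p = 0.173). None of these 3 was called, although the HH mice lay below both chow mice in each. Desaturases and elongases differed in direction: Scd2 rose, at 184 and 115 CPM in CC_l and 1030 and 425 CPM in HH (log2 fold change 2.28 ± 0.59, adjusted p = 0.0555), and so did Elovl5 (log2 fold change 1.48 ± 0.43, adjusted p = 0.0831). Both of these rises were lost without CC_l replicate 2 or HH replicate 1, and they were not both kept without CC_l replicate 1. Scd1 was at 12700 and 16200 CPM in CC_l and 25300 and 10300 CPM in HH and overlapped. Gpd2, the mitochondrial glycerol-3-phosphate dehydrogenase, was at 234 and 166 CPM in CC_l and 38.4 and 31.8 CPM in HH and fell past the adjusted threshold (log2 fold change -2.51 ± 0.57, adjusted p = 0.0334). In triglyceride synthesis Gpat4, an acyltransferase of the first step, fell (log2 fold change -1.35 ± 0.38, adjusted p = 0.0741). The Gpat4 call was lost without CC_l replicate 1, HH replicate 1 or HH replicate 2. Dgat2 was at 1260 and 1590 CPM in CC_l and 2100 and 1350 CPM in HH with overlapping groups. The 18 lipolysis and lipid droplet genes had 0 calls and a median of -0.39.

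Fatty acid uptake gave 3 rises and 0 falls among 20 genes: Gpihbp1, the lipoprotein receptor gene Vldlr (log2 fold change 1.81 ± 0.47, adjusted p = 0.0549) and Acsl5, an acyl-CoA synthetase (log2 fold change 1.20 ± 0.35, adjusted p = 0.0881). The fatty acid translocase Cd36 was at 1720 and 2320 CPM in CC_l and 6640 and 5270 CPM in HH and was not called (log2 fold change 1.56 ± 0.63, adjusted p = 0.215). In insulin signalling 0 of 32 genes rose and 2 fell, Pik3r1 and Slc2a3. Pik3r1, the regulatory subunit of phosphoinositide 3-kinase, was at 437 and 578 CPM in CC_l and 134 and 168 CPM in HH (log2 fold change -1.75 ± 0.55, adjusted p = 0.109). Slc2a3, a glucose transporter, was at 149 and 20.4 CPM in CC_l and 5.52 and 6.08 CPM in HH (log2 fold change -3.87 ± 0.91, adjusted p = 0.0367). Slc2a3 belongs to the set high in CC_l replicate 1, and CC_l replicate 1 was far above replicate 2. The insulin-regulated glucose transporter gene Slc2a4 was at 121 and 116 CPM in CC_l and 83.4 and 38.4 CPM in HH (log2 fold change -0.96 ± 0.48, adjusted p = 0.315). Of 29 genes of adrenergic and cyclic AMP signalling 4 rose: Adcy4 (log2 fold change 3.37 ± 0.72, adjusted p = 0.0279) and Adcy5 make cyclic AMP, and Pde4b and Pde7a break it down. Adrb3, the main beta-adrenergic receptor of mouse adipocytes, was at 214 and 505 CPM in CC_l and 208 and 72.1 CPM in HH and was not called. In a list of 11 genes headed antilipolytic receptors 3 rose, Calcrl, Ramp2 and Npy1r. Npy1r, a neuropeptide Y receptor, was at 1.13 and 1.31 CPM in CC_l and 7.16 and 6.08 CPM in HH (log2 fold change 2.44 ± 0.79, adjusted p = 0.12). Calcrl and Ramp2 together form the adrenomedullin receptor, which endothelial cells also carry, so the list is wider than its heading. With one mouse left out 1, 2, 1 and 3 of the uptake genes, 1, 2, 1 and 4 of the adrenergic genes and 0, 2, 0 and 2 of the antilipolytic receptors rose, and 1, 1, 1 and 1 of the insulin signalling genes fell.

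Other secreted factors and regulators of the adipocyte moved singly. Mest, an imprinted gene tied to fat expansion, was at 17.7 and 34.9 CPM in CC_l and 459 and 143 CPM in HH (log2 fold change 3.52 ± 0.88, adjusted p = 0.0472). This call was lost without CC_l replicate 1 or HH replicate 1. Metrnl, a secreted factor, was at 7.38 and 12.8 CPM in CC_l and 53.6 and 73.2 CPM in HH (log2 fold change 2.65 ± 0.74, adjusted p = 0.0725). Cck was at 0.061 and 0 CPM in CC_l and 1.64 and 31 CPM in HH, that is mainly in one HH mouse. Glucocorticoid action gave 1 rise and 2 falls among 15 genes. Fkbp5, a co-chaperone that glucocorticoids induce, fell, and was at 135 and 131 CPM in CC_l and 30.1 and 32.1 CPM in HH (log2 fold change -2.09 ± 0.39, adjusted p = 0.0211). Zbtb16, a zinc finger gene, also fell, and was at 39.2 and 72.4 CPM in CC_l and 10.9 and 10.2 CPM in HH (log2 fold change -2.41 ± 0.64, adjusted p = 0.061), whereas the kinase gene Sgk1 rose (log2 fold change 2.55 ± 0.78, adjusted p = 0.1). The Sgk1 call was lost without CC_l replicate 1, CC_l replicate 2 or HH replicate 1. The chow and HH mice were both tight at Fkbp5. Among 31 adipogenic transcription factors 1 fell, Klf15 (log2 fold change -1.68 ± 0.52, adjusted p = 0.105). Cebpa and Pparg were at 544 and 524 CPM in CC_l and 139 and 189 CPM in HH and at 188 and 294 CPM in CC_l and 186 and 147 CPM in HH, without a call. Klf15 was called without CC_l replicate 1 but not without any other of the mice, and 2, 1, 1 and 1 glucocorticoid genes fell with one mouse left out. Chromatin modifiers stood near the median of all genes, with 1 of 38 up and a median of 0.05.

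The endoplasmic reticulum (ER) folds secreted proteins and raises its chaperones when load exceeds capacity. In the list of ER and integrated stress response genes 8 of 25 rose and 0 fell, with a median of 1.14. Hspa5, the main ER chaperone BiP, was at 184 and 167 CPM in CC_l and 840 and 930 CPM in HH (log2 fold change 2.33 ± 0.57, adjusted p = 0.0441). Pdia6, which forms disulphide bonds, was at 73.3 and 75 CPM in CC_l and 347 and 274 CPM in HH (log2 fold change 2.06 ± 0.49, adjusted p = 0.0403) and Dnajb9 at 30.8 and 14 CPM in CC_l and 104 and 86 CPM in HH (log2 fold change 2.08 ± 0.46, adjusted p = 0.0298). The number of ER genes that rose was 3 without CC_l replicate 1, 5 without CC_l replicate 2, 4 without HH replicate 1 and 5 without HH replicate 2. In contrast, Ddit3 (CHOP) and Atf4, transcription factors of the integrated stress response, were at 68.8 and 70.2 CPM in CC_l and 42.3 and 72.4 CPM in HH and at 132 and 183 CPM in CC_l and 94.2 and 88.7 CPM in HH and were not called. Among 22 immediate-early genes 2 rose, with Dusp1, a phosphatase of MAP kinases, at 17.5 and 18.5 CPM in CC_l and 163 and 91 CPM in HH (log2 fold change 2.82 ± 0.59, adjusted p = 0.0264). Of 22 cell-cycle inhibitors and p53 targets 4 rose, including Trp53 (1.40 ± 0.43), and Cdkn1a (p21) was at 47.3 and 76.4 CPM in CC_l and 119 and 169 CPM in HH and was not called. Proliferation genes rose at 5 of 29, among them the replication helicase genes Mcm6 (log2 fold change 2.12 ± 0.51, adjusted p = 0.0403) and Mcm4 (log2 fold change 1.87 ± 0.47, adjusted p = 0.0468). With one mouse left out 1, 4, 1 and 1 of the immediate-early genes, 1, 2, 2 and 4 of the cell-cycle inhibitors and 1, 2, 2 and 3 of the proliferation genes rose.

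Mitochondrial transcripts split by the genome that encodes them. The respiratory chain is built from subunits encoded in the nucleus and a few encoded in mitochondrial DNA. All 75 nuclear-encoded respiratory chain genes had a log2 fold change below 0, in 73 the HH mice lay below both chow mice, and the median was -1.28, yet 0 were called. Uqcr11, a subunit of complex III, was at 1860 and 2540 CPM in CC_l and 288 and 856 CPM in HH (log2 fold change -1.94 ± 1.27, adjusted p = 0.433). Cox8a, of complex IV, was at 2070 and 2450 CPM in CC_l and 359 and 854 CPM in HH (log2 fold change -1.90 ± 1.36, adjusted p = 0.48). Atp5b, of ATP synthase, was at 1440 and 1720 CPM in CC_l and 1040 and 1010 CPM in HH (log2 fold change -0.63 ± 0.86, adjusted p = 0.745). The summed level of the list was 43300 and 59600 CPM in CC_l and 14800 and 25700 CPM in HH. It was 56000 and 8110 CPM in CCC, so CCC replicate 2 lay below both HH mice. The mean log2 CPM of the list was 7.28, 7.07 and 9.27 in the 3 C mice, a wider range than in CC_l and HH together, and the test shares its estimate of spread over all groups. The 13 mitochondrially encoded genes went the other way. All 13 were higher in both HH mice, with a median of 2.48, and 0 were called. mt-Cytb was at 1700 and 1250 CPM in CC_l and 8580 and 9150 CPM in HH (log2 fold change 2.59 ± 1.32, adjusted p = 0.321), mt-Co1 at 989 and 615 CPM in CC_l and 4610 and 3930 CPM in HH (log2 fold change 2.41 ± 1.22, adjusted p = 0.319) and mt-Nd1 at 891 and 548 CPM in CC_l and 4810 and 3220 CPM in HH (log2 fold change 2.48 ± 1.09, adjusted p = 0.254). Mitochondrial mRNA made up 0.529% and 0.349% of the counts in CC_l and 2.54% and 2.32% in HH, while the chow libraries of the whole series ranged from 0.25% to 9.45%. For mt-Co2, at 8.14 and 10.4 CPM in CC_l and 44.6 and 38.5 CPM in HH, and the other mitochondrial genes, how reads with several positions were counted is not given in the sources used here. Against the mean of the 4 chow mice of CC_l and CCC the medians were -0.90 for the nuclear and 1.85 for the mitochondrial genes.

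**Figure D4:**
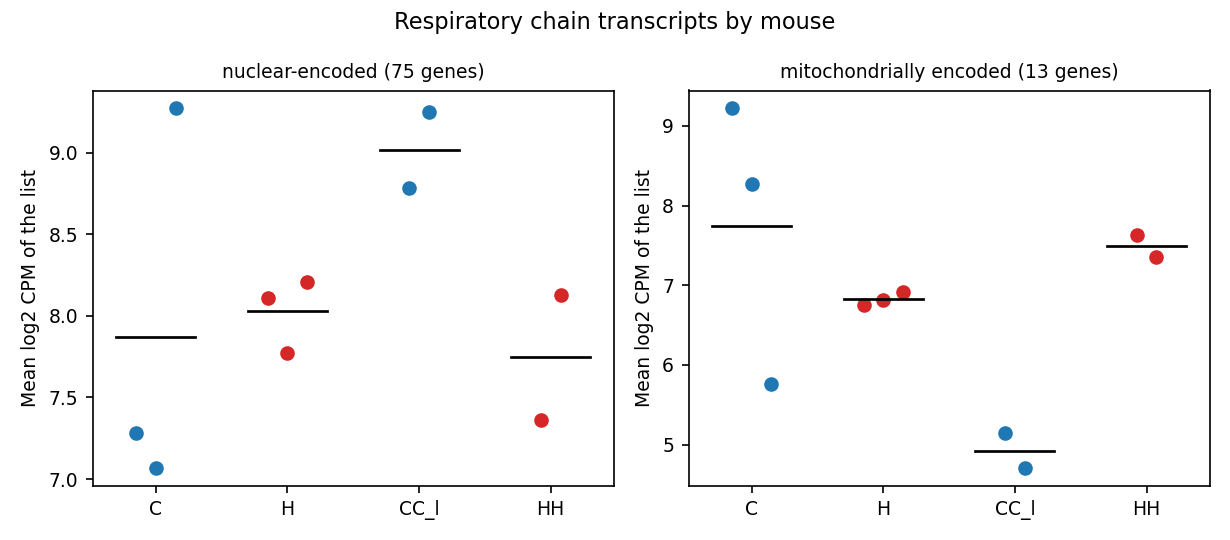
Mean log2 CPM of 75 nuclear-encoded (left) and 13 mitochondrially encoded (right) respiratory chain genes in each mouse of C, H, CC_l and HH, with chow in blue, HFD in red and group means as lines. The HH mice lie below the CC_l mice on the left and above them on the right, and the 3 C mice span most of either axis.

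Other mitochondrial pathways were also below 0 with few calls. The tricarboxylic acid cycle had 0 of 18 genes called and a median of -0.76, and 16 of the 18 separated the groups downwards. Its summed level was 4860 and 6320 CPM in CC_l, 2940 and 3740 CPM in HH and 6040 and 2670 CPM in CCC. CCC replicate 2 thus lay below both HH mice here too. Breakdown of branched-chain amino acids had 1 rise and 1 fall among 27 genes and a median of -0.80. The fall was that of Ivd, isovaleryl-CoA dehydrogenase, at 184 and 242 CPM in CC_l and 70.5 and 70.2 CPM in HH (log2 fold change -1.60 ± 0.51, adjusted p = 0.118), and was lost whichever mouse was left out. The rise was Slc3a2, the heavy chain of amino acid transporters, at 51.1 and 54 CPM in CC_l and 280 and 151 CPM in HH (log2 fold change 2.03 ± 0.48, adjusted p = 0.0382). Fatty acid oxidation had 1 rise among 32, Cpt1a, which admits fatty acids to mitochondria (log2 fold change 1.17 ± 0.40, adjusted p = 0.141), and this call too was lost whichever mouse was left out. Among 36 glutathione and antioxidant genes 2 rose and 3 fell, and the falls included Gsta3 at 625 and 686 CPM in CC_l and 54.8 and 110 CPM in HH (log2 fold change -2.99 ± 0.94, adjusted p = 0.11) and Gpx3 at 675 and 1650 CPM in CC_l and 295 and 309 CPM in HH (log2 fold change -1.95 ± 0.60, adjusted p = 0.105). With one mouse left out, 0, 0, 0 and 2 of them rose and 2, 0, 0 and 1 fell. Cytosolic ribosomal protein genes had 0 of 77 called and a median of -0.48.

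Falls were fewer than rises. Of the 12 largest falls by the fixed rule, 11 belong to the set high in CC_l replicate 1, whose rule uses these values, among them Tsks, a sperm kinase substrate, at 85.8 and 2.03 CPM in CC_l and 0.547 and 0.636 CPM in HH, and Gsto2 at 53.9 and 8.51 CPM in CC_l and 1.19 and 2 CPM in HH. They are given as values with no further account. Outside this set and the germ-cell set 45 genes passed the adjusted threshold downwards, 37 of them protein coding. In 44 of the 45 all 4 chow mice of CC_l and CCC were above both HH mice. The CC_l values helped to pick these genes, so only the CCC mice lie outside the comparison that chose them. Besides Fkbp5 and Gpd2, the following were chosen from these 45 after their values were seen. Pacsin3, a membrane-curving protein, was at 42.2 and 60.2 CPM in CC_l and 7.02 and 6.81 CPM in HH (log2 fold change -2.89 ± 0.56, adjusted p = 0.0244). Prodh, which starts proline breakdown, was at 73.5 and 91.9 CPM in CC_l and 10 and 12.2 CPM in HH (log2 fold change -2.90 ± 0.63, adjusted p = 0.0295). Pth1r, the parathyroid hormone receptor, was at 68 and 43.4 CPM in CC_l and 11.3 and 16 CPM in HH (log2 fold change -2.03 ± 0.45, adjusted p = 0.0308). Prkag2, a subunit of AMP-activated protein kinase, was at 68.5 and 52.9 CPM in CC_l and 18.4 and 21.4 CPM in HH (log2 fold change -1.61 ± 0.40, adjusted p = 0.0465). Dnajb2, a co-chaperone, was at 117 and 90 CPM in CC_l and 21.7 and 27.7 CPM in HH (log2 fold change -2.07 ± 0.42, adjusted p = 0.0253). In these 5 genes each CC_l mouse was more than 2 times above each HH mouse.

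The H mice had received 12 weeks of HFD and were compared with C, so the 25-week effect could be set beside a shorter one in other mice with other controls. Age, duration and the prefix of the library labels differ together between these arms and cannot be told apart. With the germ-cell set left out, 394 genes rose after both durations, which is 37.4% of the 1054 risers in HH and 51.4% of the 766 in H. These 766 are 3.57% of the genes tested. Falls were shared by 120 genes, 31.6% of 380 and 19.2% of 626 in H (2.92% of the genes tested). Another 1 gene rose in HH and fell in H, and 2 genes fell in HH and rose in H. Medians were larger after 25 weeks in the matrix (2.63 against 1.55), macrophage (3.40 against 2.00), lysosome (1.56 against 0.51) and progenitor (2.48 against 1.09) lists, and in 41 of 61 lists in all. They were lower in 19, among them proliferation (1.23 against 2.15) and epididymal epithelium markers (-0.29 against 5.88, with a summed level of 938, 3600 and 180 CPM in the H mice). Without CC_l replicate 1, the 25-week medians were 2.21 for proliferation, which is not below that in H, and 3.12 for epididymal epithelium markers. Mitochondrially encoded genes had medians of opposite sign (2.48 against -1.74). Their counts made up 9.45%, 6.25% and 0.546% of the 3 C libraries and 1.79% to 2.26% of the H libraries, so C replicate 3 lay below every H mouse and the other C mice above. Nuclear-retained RNA made up 3.29% and 4.44% of the counts in those 2 C libraries and 0.378% in C replicate 3, and its part in these values was not tested. The difference between effects itself was tested per gene: 0 of 21464 genes passed an adjusted p under 0.05 (smallest 0.848), and 722 (3.36%) and 520 (2.42%) had a nominal p under 0.05 with a higher or lower effect in HH. By DESeq2 39 genes passed, and by edgeR's likelihood ratio test 6. Among genes with the smallest p for that difference were Lrrn4cl, with a log2 fold change of 2.63 in HH and -0.10 in H, Gdf10, a BMP-family ligand (2.13 and -1.12), and Amhr2, a receptor of the same family (-2.88 and 1.71). Sfrp4 had 4.40 in HH and 0.95 in H, and Lep 0.70 and 2.02.

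**Figure D5:**
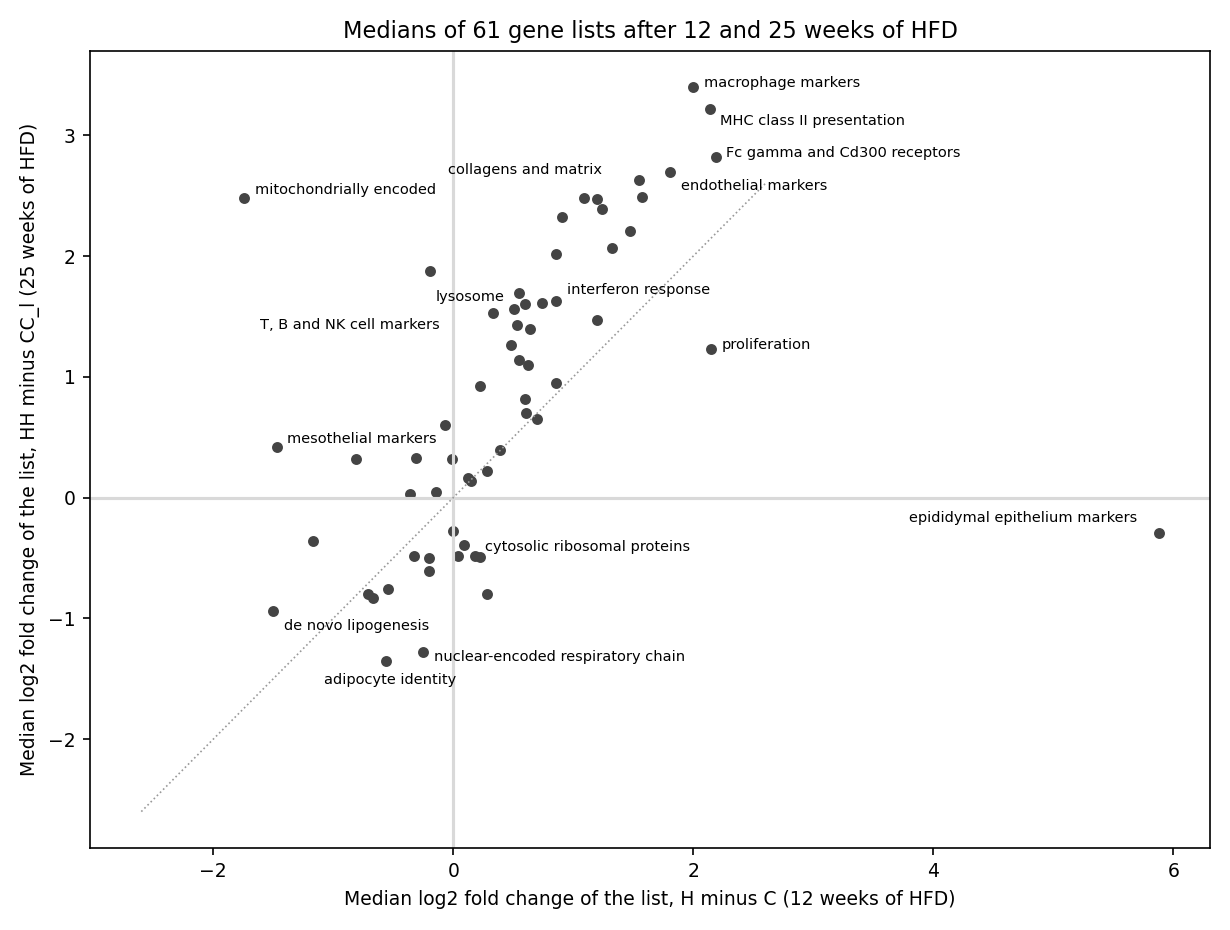
Median log2 fold change of each of 61 gene lists (the germ-cell list is left out) after 12 weeks of HFD, H minus C (horizontal axis), and after 25 weeks, HH minus CC_l (vertical axis). The dotted line marks equal medians. Macrophage, matrix and endothelial lists lie above it on the right, and mitochondrially encoded genes lie at -1.74 and 2.48.

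Mice of the same arm that returned to chow for 8 weeks (HHC) were set against their own controls (CCC), and the 25-week effect was tested against theirs. The effect was higher in HH for 170 genes (0.792%) and lower for 5 (0.0233%) at an adjusted p under 0.05. This count rested on single mice: it was 0 without CC_l replicate 1, CC_l replicate 2, HH replicate 1 or HHC replicate 1, 3 without CCC replicate 2, 42 without HHC replicate 2, 105 without HH replicate 2 and 395 without CCC replicate 1. At a nominal p under 0.05 there were 3334 genes with all mice, and between 1798 and 4812 in these fits. A fit on the 8 long-arm libraries gave 0 adjusted calls with 2461 nominal ones, and DESeq2 gave 1215 adjusted calls. Of the 170, 155 had risen in HH and 167 had a log2 fold change below 0 in HHC. The 170 were chosen on the difference of these same effects, so both counts follow in part from that choice. They included 20 of the 39 collagen and matrix genes, 10 of the 21 endothelial markers and 7 of the 23 progenitor and fibroblast markers. Serpinf1 had 3.96 in HH and -0.41 in HHC, a difference of 4.36 (adjusted p = 0.0111), and Postn 4.95 and -1.45, a difference of 6.40 (adjusted p = 0.0179). Vwf had 2.71 and -3.11, and Aplnr 3.64 and -3.07. Of the 20 macrophage markers 2 were among the 170, Csf1r (2.89 and -0.81) and Cd14 (2.57 and -1.60). For Adgre1 the values were 4.49 and 0.60 (adjusted p = 0.098), and for Cd74 3.64 and 1.23 (adjusted p = 0.227). List medians in HHC were 0.94 for macrophage markers, 1.08 for MHC class II, -1.19 for matrix and -2.04 for endothelial markers. CCC replicate 2 stood apart, with 3.6% nuclear-retained RNA against 0.745% in CCC replicate 1 and 0.674% ribosomal protein mRNA against 2.44%. It was also the higher CCC mouse in the summed level of the endothelial (1460 against 689 CPM) and matrix lists (7930 against 5010 CPM), and its part in these medians was not tested. Among the 5 genes with a lower effect in HH were Azin2 (-3.02 and 0.78) and Dnajb2 (-2.07 and 0.86).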

How the data were processed

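TRAP–seq libraries from epiAT of 20 mice were analysed, 4 of which make up the main comparison. Per the labels and the study's methods, the authors trimmed reads with Trim Galore (v.0.6.6), checked them with FastQC (v.0.11.9), aligned them to mm10 with HISAT2 (v.2.2.1) and deposited raw read counts per gene from featureCounts (Subread v.2.0.1). The annotation used for counting, strand, pair and multi-mapping settings are not given in the sources used here. Between 74.4% and 89.2% of the nonzero counts in a library were even, so both ends of a pair may each have been counted.

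Groups were taken from the sample labels. Counts were analysed in R (v.4.3.3) with edgeR (v.4.0.16): of 46078 genes 21464 passed filterByExpr, TMM factors were applied, and glmQLFit and glmQLFTest were run on all 20 libraries in 8 groups without covariates. The biological coefficient of variation was 0.68. DEGs were genes whose nominal p was under 0.01 and whose log2 fold change was 1 or more in size, and Benjamini-Hochberg adjusted p-values are given beside them. With 2 mice a group the adjusted p-values rest on a spread estimated over all groups. Symbols and positions came from GENCODE vM21 (GRCm38) and matched 45229 genes (98.2%), and promoter sequences came from RefSeq (GRCm38.p6). Gene lists (62, with 1520 genes tested) are described by counts and medians alone. Members and lists were chosen with earlier results of these data known.

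Genes were named by a rule: the 12 largest rises and falls among protein-coding genes past the adjusted threshold, without overlap between groups, outside the germ-cell set and with at least 5 CPM in the higher group; per list up to 4 called genes with the lowest p, up to 3 with the highest level, and members needed to describe a pathway; cell type markers; and up to 8 genes a direction with the lowest p for each difference between effects. Scripts were tested on simulated data. Alternatives were DESeq2 (v.1.42.0), RLE size factors, no filter, the likelihood ratio test, other sets of samples or controls, a replicate block, halved counts, a covariate for nuclear-retained RNA, leaving out the germ-cell set or the set high in CC_l replicate 1, and leaving out each mouse.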

Additional observations from a re-analysis of the deposited data

Results flagged for a closer look

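The effect of 25 weeks of HFD differed from that left 8 weeks after the return to chow at 175 genes by edgeR's interaction test (HH minus CC_l against HHC minus CCC, adjusted p under 0.05), a count that was between 0 and 395 when single mice were left out. Values here are the HH effect minus the HHC effect on the log2 scale, for every gene named in the text that passed. Matrix and secreted matrix-binding genes were Postn (6.40), Col3a1 (5.59), Lum (5.30), Col1a1 (5.23), Fn1 (5.17), Mmp2 (5.14), Col6a3 (5.12), Mfap5 (4.45), Col14a1 (4.04), Col6a2 (3.96), Fstl1 (3.69) and Lox (2.98), and the secreted factors Sfrp4 and Serpinf1 had 5.53 and 4.36. Vessel and mural markers were Aplnr (6.71), Gpihbp1 (6.16), Kcnj8 (5.87), Vwf (5.82), Pecam1 (4.92) and Abcc9 (4.64). Adcy4 (6.0), Ackr3 (4.92) and Adm (3.54) came from the cyclic AMP, chemokine receptor and hypoxia lists. Macrophage genes were Cd14 (4.17) and Csf1r (3.70). Scd2 (4.13), Dusp1 (3.74), Slc3a2 (3.21), Steap3 (3.18) and Lrrn4cl (2.41) completed the genes with a higher effect in HH. Gsto2 (-5.81), Azin2 (-3.79) and Dnajb2 (-2.93) had a lower effect, and Gsto2 belongs to the set high in CC_l replicate 1. Groups of 2 or 3 mice are too small for a test of single outlying mice.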

How the results depend on the processing

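With 2 mice a group, the number of DEGs depended on the fit more than their direction did. The comparison of HH with CC_l gave 1458 DEGs (1055 up, 403 down) and 445 genes at an adjusted p under 0.05. DESeq2 gave 2309 DEGs, 910 down and 1917 adjusted; no filter on low counts gave 2879, 1418 and 2107; and the covariate for nuclear-retained RNA gave 2570, 1077 and 1781. The likelihood ratio test gave 716 down and 1141 adjusted. The long-arm libraries alone gave 935 DEGs, 204 down and 0 adjusted, and CC_l with CCC as controls gave 251 down. Leaving out one mouse at a time gave 569 to 1306 DEGs, 419 to 826 up, 80 to 609 down and 0 to 81 adjusted, the lowest total being without CC_l replicate 1. RLE factors, halved counts, the 4 libraries alone and the germ-cell set left out stayed within 1.5 times of each count.

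Replicate numbers were used as a block although they are not known to pair these mice. Across genes, the deviations of HH replicate 1 and CC_l replicate 1 from their group means had a correlation of -0.0628. With 2 mice a group replicate 2 mirrors replicate 1, so this single value cannot settle whether the numbers pair mice. With the replicate block 217 genes fell and 38 passed the adjusted threshold, with 1040 DEGs, and the difference from HHC was called at 1 gene.

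The difference from the H effect was called at 0 genes, but at 39 by DESeq2, 6 by the likelihood ratio test and 207 without a filter, and at 0 genes whichever mouse was left out. The difference from the HHC effect, at 175 genes, was called at 1215 by DESeq2, 961 by the likelihood ratio test, 1266 without a filter, 109 with halved counts, 57 with the covariate, 21 with RLE factors, 0 with the long arm alone, and 0 to 395 without one mouse. The cause of these differences was not tested.

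Of the 135 DEGs named in the text, 68 were called under every alternative that tested them and none changed sign. Without CC_l replicate 1, 52 were no longer called, and without HH replicate 1, 41. Of the 31 lists with a median of at least 1 in size, 1 changed sign, the germ-cell transcripts without CC_l replicate 1. The number of mice and counting error limit low genes most, and levels near the limit of a count of 0 were given no fold.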
